A study of Mus musculus with 6 samples.

Results

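The transcription factors Wt1, Lhx9, Emx2, Gata4, Gata6, Tcf21, Nr2f1, Nr2f2 and Osr1 shape the gonadal ridge, the mesonephros and the mesenchyme between them. They were followed in adult theca-lineage cells sorted from mouse ovaries. All probe sets whose only gene symbol in the platform annotation was one of these 9 names were taken, which gave 21 of 45037 non-control probe sets, for 9 of 18193 named genes. Probe sets were matched to the 9 names by symbol, not by their values, but the names themselves were chosen with earlier results of these data known. Mesonephros_theca cells had been labelled by tamoxifen in the fetus, on E12.5, on E14.5 and once more on E16.5 (3 samples), and Ovary_theca cells by tamoxifen given through the nursing dam on postnatal days 1 to 3 (3 samples). Both groups came from females of strain 129S6/SvEvTac aged 2 months and carried Gli1-CreERT2 and Rosa-LSL-tdTomato, so the red label marks cells, and the descendants of cells, that expressed the hedgehog target Gli1 when tamoxifen was given. The labels do not say whether animals were pooled. Place of origin and time of labelling changed together between the groups and cannot be told apart.

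The gonadal ridge arises on the surface of the mesonephros, the transient fetal kidney. Wt1, Lhx9, Emx2 and Gata4 are each needed for the early gonad in mice, where they act in the surface epithelium of the ridge and in the somatic cells that come from it. Gata6, Tcf21, Nr2f1, Nr2f2 and Osr1 are factors of mesenchyme and intermediate mesoderm, the tissue that supplies kidney stroma and gonadal interstitium. In the adult ovary Wt1 and Gata4 are known from granulosa cells, stroma and surface epithelium, and Nr2f2 from theca and stroma.

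The start regions of 3 of the 9 genes are shown because they lie in front of 2 factors that read above the Ovary_theca level and of 1 that read below it. Each is the 250 bases before the annotated start, 5′ to 3′ on the gene's own strand, from RefSeq (GRCm38.p6), at chr10:22820144-22820393 (minus strand) for Tcf21, chr7:70366747-70366996 (minus strand) for Nr2f2 and chr19:59458440-59458689 (plus strand) for Emx2. Capitals mark matches, on either strand, to GATAA (GATA factors), CANNTG (the E-box of basic helix-loop-helix factors such as Tcf21), AGGTCA (a half-site of Nr2f1, Nr2f2 and related receptors) and TAATTA (a homeodomain core). No match overlapped another.
Tcf21: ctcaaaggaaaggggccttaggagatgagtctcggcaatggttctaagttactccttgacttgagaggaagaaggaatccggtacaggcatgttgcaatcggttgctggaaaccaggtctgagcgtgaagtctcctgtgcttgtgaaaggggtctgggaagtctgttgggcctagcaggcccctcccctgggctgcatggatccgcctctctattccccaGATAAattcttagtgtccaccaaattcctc
Nr2f2: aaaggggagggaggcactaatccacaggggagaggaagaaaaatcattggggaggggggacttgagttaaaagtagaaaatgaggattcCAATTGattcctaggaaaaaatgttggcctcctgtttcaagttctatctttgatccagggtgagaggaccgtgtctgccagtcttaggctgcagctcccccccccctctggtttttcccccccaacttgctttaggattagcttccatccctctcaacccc
Emx2: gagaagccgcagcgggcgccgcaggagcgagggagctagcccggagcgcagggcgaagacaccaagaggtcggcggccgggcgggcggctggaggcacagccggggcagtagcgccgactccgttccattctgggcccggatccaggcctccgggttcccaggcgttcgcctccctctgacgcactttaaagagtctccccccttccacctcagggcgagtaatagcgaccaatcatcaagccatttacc
The Tcf21 window held 1 GATAA and the Nr2f2 window 1 CANNTG, while the Emx2 window held none of the 4 motifs. Among 32851 windows of the same length, 22.58% held GATAA, 66.22% CANNTG, 14.02% AGGTCA and 4.84% TAATTA. The Emx2 window was 67.2% G and C with 24 CG pairs, against 52.4% and 5 for Tcf21 and 50.0% and 1 for Nr2f2. A match describes letters only, and the arrays did not measure binding.

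RNA was read on 1-colour oligonucleotide arrays, and values are linear probe set signals. Ovary_theca arrays correlated with each other at 0.963 to 0.973 over all non-control probe sets, and Mesonephros_theca arrays at 0.844 to 0.896. Between the groups, Mesonephros_theca replicates 1, 2 and 3 correlated with the Ovary_theca arrays at 0.871 to 0.875, 0.887 to 0.893 and 0.946 to 0.950. Mesonephros_theca replicate 3 was thus more like every Ovary_theca array than like its own group (0.876 to 0.896), and the Mesonephros_theca arrays did not group together. Poly-A spike transcripts, which enter before amplification, stood at 15.0, 14.2 and 2.43 times the Ovary_theca mean on Mesonephros_theca replicates 1, 2 and 3, and at 0.683 to 1.76 times on the Ovary_theca arrays. Hybridization controls stood at 3.41, 2.76 and 1.40 times, and at 0.838 to 1.24 times. Both kinds of control were higher on every Mesonephros_theca array than on any Ovary_theca array, so what they reflect cannot be told apart from group. The 3′ to 5′ signal ratio of Gapdh was 5.29, 3.48 and 2.63 on Mesonephros_theca replicates 1, 2 and 3, and 1.94 to 2.86 on Ovary_theca arrays. That of Actb was 0.887, 0.929 and 0.894, and 0.920 to 1.01. The spread was unequal: the SD was larger on the Mesonephros_theca arrays for 82.5% of the 27022 probe sets tested and for 14 of 19 tested probe sets of the 9 factors. Steroidogenic theca genes were bright in both groups, with a summed signal over 6 measured genes of 35234 to 59051 in Mesonephros_theca and 22596 to 32463 in Ovary_theca. All 6 were above 0 in log2 change with a median of 0.91, and 3 passed an unadjusted p of 0.05 in limma, against 13.7% of all genes, but none an adjusted one, against 0.0427%. Their mean stood at 0.45, 1.52 and 1.18 log2 units from the Ovary_theca mean in Mesonephros_theca replicates 1, 2 and 3, with an SD of 0.085 between Ovary_theca arrays, and its part in the values of the 9 factors was not tested.

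Of the 21 probe sets, 19 reached the floor set for testing, a mean over all 6 arrays at the 40th percentile of the array (a signal of 99.4), and all 9 genes had at least 1 tested probe set. None of the 19 passed an adjusted p of 0.05 in limma, where 0.0148% of all tested probe sets did (4 of 27022). At an unadjusted p of 0.05, 5 of the 19 passed, against 12.9% of all tested. Of these, 3 lay above the Ovary_theca level (Lhx9, Tcf21 and Nr2f2), against 5.79% of all tested, and 2 below it (Wt1 and Emx2), against 7.06%. Emx2 reached the floor only through its Ovary_theca arrays, the 1 tested probe set of the 19 with a group mean under the floor, so its place in these counts is no support. Arrays of the groups were fully separate on 9 of the 19 probe sets and on 21.3% of all tested. On 6 of the 9 every Mesonephros_theca array was the higher one, against 8.82% of all tested, and on 3 (Wt1, Emx2 and 1 of Gata4) every one was the lower, against 3366 of the 27022 tested, a share near that background. Changes were above 0 for 13 of the 19 and for 42.0% of all tested, with a median of 0.36 over the 19 and -0.11 over all. Of these 19, 6 are probe sets of Nr2f2, so they are not independent. Probe sets of the mesenchymal factors were above 0 for 10 of 12 and those of the ridge factors for 3 of 7. Nothing in the labels ties the samples to separate animals, and the p-values therefore cover a spread that may be technical. An exact permutation test of 3 against 3 arrays cannot go below a two-sided p of 0.1.

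**Figure D1:**
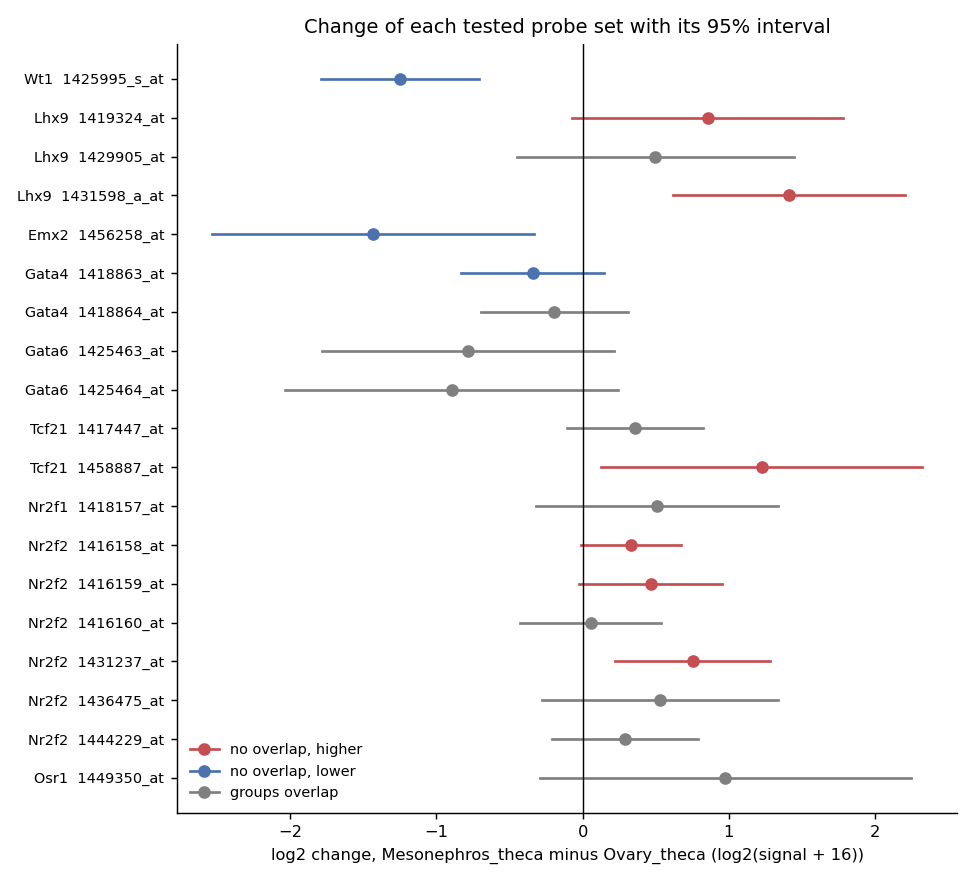
Each row is a tested probe set of the 9 factors, with its log2 change (Mesonephros_theca minus Ovary_theca, on log2(signal + 16)) as a point and its 95% interval from limma as a bar; colour shows whether the arrays of the groups overlap. Intervals of Wt1 and Emx2 lie below 0 (Emx2 has a Mesonephros_theca mean under the floor), and those of 1 probe set each of Lhx9, Tcf21 and Nr2f2 lie above it.

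Wt1, a zinc finger factor without which neither gonads nor kidneys form, had the lowest p of the 9 genes. Its probe set, 1425995_s_at, read 531, 598 and 593 in Mesonephros_theca replicates 1 to 3, against 1152, 1587 and 1447 in Ovary_theca replicates 1 to 3. Every Mesonephros_theca array lay at about the same level and under every Ovary_theca array. The means were 574 ± 37.2 in Mesonephros_theca and 1395 ± 222 in Ovary_theca (SD, n = 3 each), which is 2.37-fold lower in Mesonephros_theca. Its log2 change was -1.25 ± 0.24 (SE), with a 95% interval of -1.79 to -0.71 and a limma adjusted p of 0.182 over all tested probe sets. Among 27022 tested probe sets, 2.75% had a smaller SD than Wt1 on the Mesonephros_theca arrays, where its SD was 0.09 log2 units, against 0.24 on the Ovary_theca arrays. With arrays weighted by their noise Wt1 passed (-1.32 ± 0.26 SE, limma adjusted p = 0.0233), a setting that called 252 of the 27022 probe sets, against 4 without weights. Ovary_theca replicate 2, the array with the highest Wt1 signal, had a weight of 6.08, against 0.21 to 0.96 on the Mesonephros_theca arrays. As these are bulk samples, fewer cells with a transcript and less of it per cell cannot be told apart.

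Surface epithelium, a site of Wt1 in the ovary, was all but unread: none of 13 marker genes reached the floor, 8 of them were under it on all 6 arrays (Krt8, Upk1b, Msln, Lrrn4, Gpm6a, Muc16, Cdh1 and Bnc1), and the summed signal was 385 to 529 in Mesonephros_theca and 357 to 478 in Ovary_theca. Granulosa markers, another site, summed to 6144 to 7895 in Mesonephros_theca and 6800 to 8038 in Ovary_theca over 10 measured genes. Of these, 6 were tested, 3 above 0 and 3 below, from -1.71 to 0.72. None passed an unadjusted p of 0.05 in limma, against 13.7% of all genes, which for 6 genes is near that share. The gene at -1.71 had an unadjusted p of 0.0505 (limma). Foxl2, the forkhead factor of granulosa cells, averaged 3991 ± 600 in Mesonephros_theca and 4520 ± 747 in Ovary_theca (SD, n = 3 each), and Fshr, the follicle-stimulating hormone receptor, was under the floor on all 6 arrays. Kitl, the Kit ligand of granulosa cells, read 173, 536 and 632 in Mesonephros_theca and 727, 696 and 890 in Ovary_theca, so it was lower on every Mesonephros_theca array, as Wt1 was. Inha, the inhibin alpha subunit, overlapped at 958 ± 413 in Mesonephros_theca and 752 ± 145 in Ovary_theca (SD, n = 3 each). The part of granulosa RNA in the Wt1 value was not tested. Smooth muscle and pericyte markers separated the groups, as Wt1 did: 17 of 17 genes were above 0 in log2 change, against 43.5% of all genes. Their summed signal was 94793 to 116613 in Mesonephros_theca and 43606.5 to 54180 in Ovary_theca, and none of the 17 was under the floor on all 6 arrays. In limma 2 of the 17 passed an adjusted p of 0.05, against 0.0427% of all genes, and 12 an unadjusted one, against 13.7%. The brightest, Acta2, Mylk and Rgs5, stood at 1.23, 1.20 and 0.83. The part of these cells in the values of the 9 factors was not tested.

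Lhx9, a LIM homeodomain factor needed for the early gonad, pointed the other way. Its brightest probe set, 1431598_a_at, read 1292, 1002 and 774 in Mesonephros_theca replicates 1 to 3, against 375, 534 and 244 in Ovary_theca replicates 1 to 3. The groups did not overlap. The change was 2.66-fold, a log2 change of 1.41 ± 0.35 (SE; 95% interval 0.62 to 2.20; limma adjusted p = 0.245).

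A pair of other Lhx9 probe sets passed the floor. Probe set 1419324_at read 226, 374 and 472 in Mesonephros_theca and 207, 214 and 135 in Ovary_theca, also without overlap (0.86 ± 0.41 SE, limma adjusted p = 0.414). Probe set 1429905_at lay near the floor at 172, 128 and 167 in Mesonephros_theca and 78.9, 134 and 108 in Ovary_theca, with overlap (0.50 ± 0.42 SE, limma adjusted p = 0.621). The brighter pair ordered the replicates differently: replicate 1 was the highest Mesonephros_theca array on 1431598_a_at and the lowest on 1419324_at. The last, 1441313_x_at, was under the floor on all 6 arrays, at 25.6 to 72.1 in Mesonephros_theca and 25.7 to 88.1 in Ovary_theca, and was not tested. Pearson correlations between the 4 probe sets over the 6 arrays ranged from -0.22 to 0.74.

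Emx2, a homeodomain factor required for the urogenital system, was read by 1 probe set, 1456258_at, at a dim level. It stood at 73.4, 129 and 36.8 in Mesonephros_theca, against 253, 231 and 187 in Ovary_theca. The groups did not overlap, and 1 of 3 Mesonephros_theca arrays reached the floor signal against 3 of 3 Ovary_theca arrays. Its mean was 79.8 in Mesonephros_theca, under the floor, and 224 in Ovary_theca, so it was tested only because of its Ovary_theca level. Its log2 change of -1.43 is therefore a description, and it ranged from -2.30 to -1.04 over the settings tried.

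Gata4, a zinc finger factor of gonadal somatic cells that binds promoters of steroidogenic genes, differed less. Probe set 1418863_at read 1519, 2173 and 2241 in Mesonephros_theca, against 2703, 2259 and 2481 in Ovary_theca. The groups did not overlap, but the highest Mesonephros_theca array and the lowest Ovary_theca array almost met. This gave a log2 change of -0.34 ± 0.22 (SE; 95% interval -0.83 to 0.14; limma adjusted p = 0.516), or -0.16 without Mesonephros_theca replicate 1. The other probe set, 1418864_at, read 1168, 1216 and 1616 in Mesonephros_theca and 1685, 1497 and 1365 in Ovary_theca and overlapped (-0.19 ± 0.22 SE, limma adjusted p = 0.727).

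**Figure D2:**
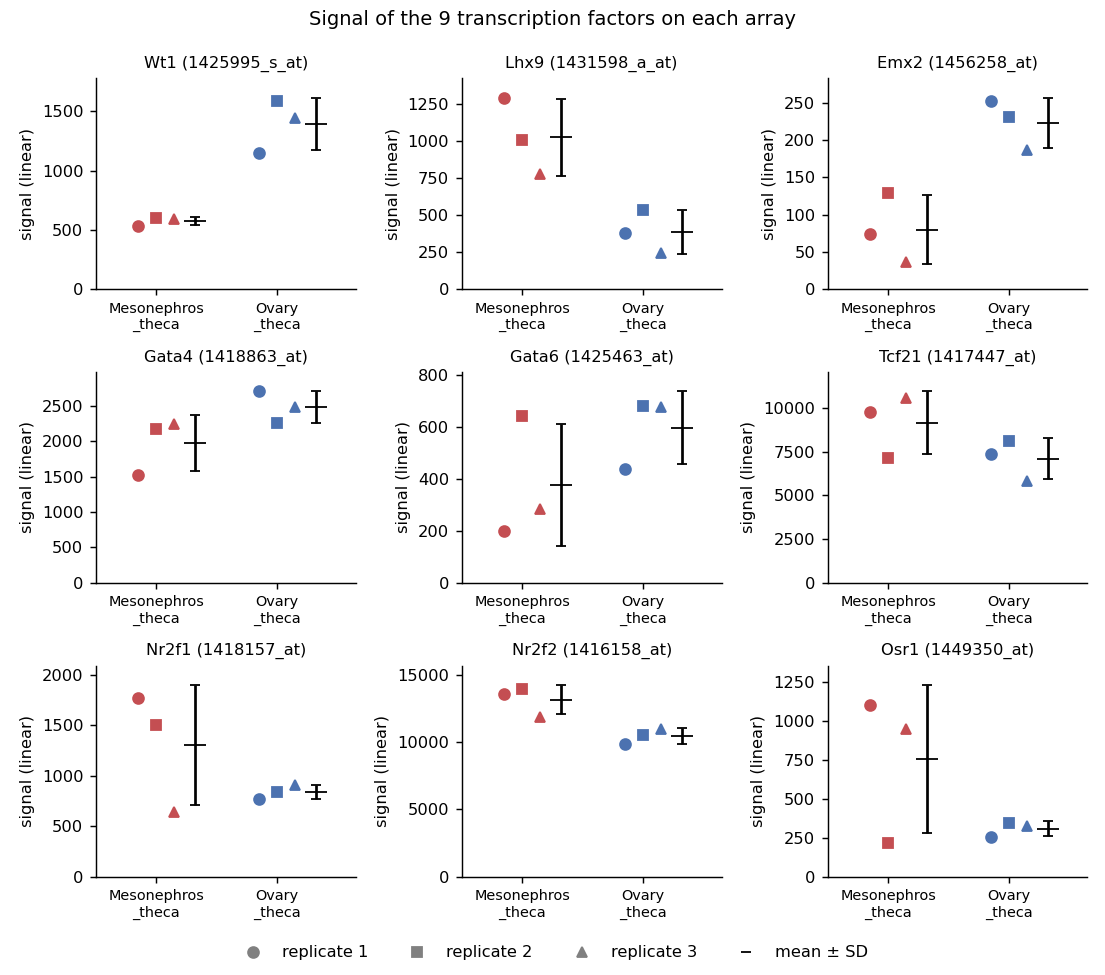
Linear signal (y axis, from 0) of the brightest probe set of each of the 9 factors, 1 point per array with replicate number by shape, and the mean ± SD of each group beside its points (n = 3). The Mesonephros_theca points of Wt1 lie together at 531 to 598, while those of Osr1 run from 215 to 1103.

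On Gata6 and Osr1 Mesonephros_theca replicate 2 stood apart from replicates 1 and 3. Gata6, the GATA factor that overlaps with Gata4 in ovarian somatic cells, read 199, 641 and 284 in Mesonephros_theca replicates 1, 2 and 3 on probe set 1425463_at, against 436, 678 and 675 in Ovary_theca. Replicates 1 and 3 lay below every Ovary_theca array and replicate 2 lay among them. Probe set 1425464_at gave the same order, with 78.4, 266 and 102 in Mesonephros_theca and 214, 356 and 222 in Ovary_theca, and the correlation between these 2 probe sets was 0.95 over the 6 arrays. The log2 changes were -0.78 ± 0.44 and -0.90 ± 0.50 (SE; limma adjusted p = 0.474 and 0.473), or -1.24 and -1.37 without replicate 2 (limma adjusted p = 0.284 and 0.306) and -0.44 and -0.58 without replicate 1 (limma adjusted p = 0.568 and 0.529). The dimmest probe set, 1443081_at, was not tested. It read 5.24, 2.67 and 66.0 in Mesonephros_theca, all under the floor, and 96.6, 105 and 113 in Ovary_theca, at least 1.04-fold lower in Mesonephros_theca.

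Osr1, an odd-skipped zinc finger factor of the intermediate mesoderm, was read by 1 probe set, 1449350_at, at 1103, 215 and 953 in Mesonephros_theca replicates 1, 2 and 3, against 253, 345 and 322 in Ovary_theca. Replicates 1 and 3 lay above every Ovary_theca array and replicate 2 below every one. Osr1 stood at a log2 change of 0.98 ± 0.56 (SE; 95% interval -0.29 to 2.24; limma adjusted p = 0.484), with 1.70 ± 0.29 without replicate 2 (limma adjusted p = 0.183), 0.56 ± 0.53 without replicate 1 (limma adjusted p = 0.603) and 0.67 without replicate 3. Its SD of 1.26 log2 units on the Mesonephros_theca arrays was the highest of the 19 tested probe sets, against 0.22 on the Ovary_theca arrays.

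Mean values of the endothelial and macrophage marker lists split the same replicates. The mean of 14 endothelial genes stood at -1.66, -0.04 and -1.26 log2 units from the Ovary_theca mean in Mesonephros_theca replicates 1, 2 and 3, with an SD of 0.40 between Ovary_theca arrays. Their summed signal was 5329 to 11918 in Mesonephros_theca and 8542 to 12998 in Ovary_theca. Single genes differed. In the same order of replicates, the brightest, Emcn, stood at 0.51, -0.67 and 0.43, Cdh5 at -1.05, 0.04 and -1.10, and Eng at -0.92, 1.15 and 0.24. Of 13 tested endothelial genes, 2 were above 0 in log2 change and 11 below, against 43.5% of all genes above 0. The mean of 13 macrophage genes stood at -2.69, 0.40 and -0.92, with an SD of 0.30, and their summed signal was 1608 to 15854 in Mesonephros_theca and 6606 to 10276 in Ovary_theca. Their brightest genes were C1qb at -1.12, 1.53 and -1.02, Lyz2 at -4.17, 1.20 and -0.22, and Csf1r at -6.13, -1.06 and -1.46. On replicate 1, Lyz2 and Csf1r were under the floor. Of the 14 endothelial genes none was under the floor on all 6 arrays, and of the 13 macrophage genes only Cd14 was. Over the Mesonephros_theca arrays Gata6, at -1.48, 0.13 and -1.00, moved with the means of both lists and Osr1, at 1.80, -0.47 and 1.60, moved against them. On Ovary_theca replicates 1, 2 and 3 Gata6 stood at -0.41, 0.21 and 0.20, the endothelial mean at 0.27, 0.20 and -0.46 and the macrophage mean at -0.10, 0.34 and -0.24. The granulosa mean split the Mesonephros_theca replicates in the same way, at -0.36, 0.04 and -0.41. Emcn was lowest on replicate 2, as Osr1 was. The part of these cells in the Gata6 and Osr1 values was not tested.

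**Figure D3:**
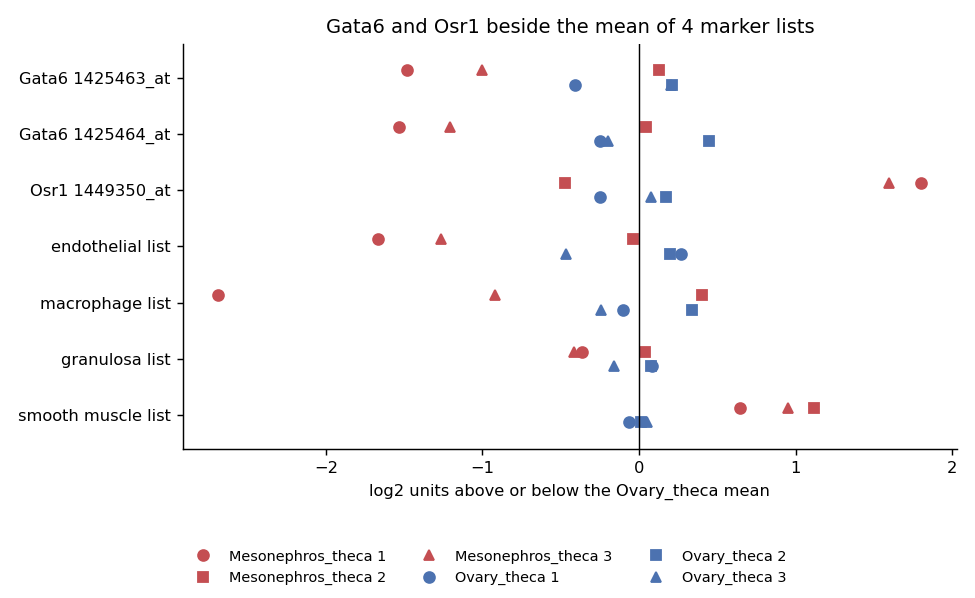
Each array's distance from the Ovary_theca mean in log2 units (x axis) for 2 Gata6 probe sets, for Osr1 and for the mean of the endothelial, macrophage, granulosa and smooth muscle marker lists; colour shows the group and shape the replicate. Mesonephros_theca replicate 2 (red squares) lies near or among the Ovary_theca points for Gata6, for the endothelial, macrophage and granulosa lists and below them for Osr1, and for smooth muscle it lies with the other Mesonephros_theca arrays.

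Tcf21, a basic helix-loop-helix factor of kidney and gonadal mesenchyme in the mouse, read 9802, 7165 and 10571 in Mesonephros_theca on its brightest probe set, 1417447_at, against 7367, 8133 and 5850 in Ovary_theca. Replicate 2 again lay among the Ovary_theca arrays. The log2 change was 0.36 ± 0.21 (SE; 95% interval -0.11 to 0.83; limma adjusted p = 0.482), and 0.06 after quantile normalization. Probe set 1458887_at read 1046, 346 and 316 in Mesonephros_theca and 211, 236 and 159 in Ovary_theca. It did not overlap between the groups (1.22 ± 0.49 SE, 95% interval 0.13 to 2.32, limma adjusted p = 0.361), and the change was 0.69 without Mesonephros_theca replicate 1.

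Nr2f1 and Nr2f2, also called COUP-TFI and COUP-TFII, are a pair of related orphan nuclear receptors of mesenchyme. Nr2f1 read 1772, 1508 and 638 on its 1 probe set, 1418157_at, in Mesonephros_theca, against 766, 840 and 905 in Ovary_theca. Replicates 1 and 2 lay above every Ovary_theca array and replicate 3 below every one. That is a log2 change of 0.51 ± 0.37 (SE; 95% interval -0.32 to 1.34; limma adjusted p = 0.564) with 0.96 without replicate 3 (limma adjusted p = 0.11), 0.23 without replicate 1 (limma adjusted p = 0.747) and 0.35 without replicate 2. Poly-A spikes were high on replicates 1 and 2 and less so on replicate 3. A fit that included the spike level gave Nr2f1 a change of -0.84 ± 0.44 (SE), not past the threshold. That fit also moved Gata4 1418863_at from -0.34 to -0.03, Lhx9 1419324_at from 0.86 to 1.76 and Emx2 from -1.43 to -2.30. Wt1 went only from -1.25 to -1.26. Spikes were higher on every Mesonephros_theca array than on any Ovary_theca array, so the fit cannot tell spike level from group. The part of spike level in the Nr2f1 values was not tested.

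Nr2f2 was read by 6 probe sets, all above 0 in log2 change, from 0.06 to 0.75. The brightest, 1416158_at, read 13639, 13956 and 11928 in Mesonephros_theca, against 9859, 10579 and 10984 in Ovary_theca. These groups did not overlap, and the log2 change of 0.33 ± 0.15 (SE; 95% interval -0.01 to 0.67; limma adjusted p = 0.403) turned to -0.12 after quantile normalization. Probe set 1431237_at had the largest change of the 6, with 1620, 1515 and 1928 in Mesonephros_theca and 836, 937 and 1239 in Ovary_theca (0.75 ± 0.24 SE, 95% interval 0.22 to 1.28, limma adjusted p = 0.296), and it stood at 0.79 after quantile normalization. Probe set 1416159_at, at 11966, 7144 and 7692 in Mesonephros_theca and 5738, 6362 and 6837 in Ovary_theca, also did not overlap (0.46 ± 0.22 SE, limma adjusted p = 0.408), and the change was 0.24 without Mesonephros_theca replicate 1, its highest array.

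The other 3 Nr2f2 probe sets overlapped between the groups. Probe set 1436475_at read 1059, 3125 and 1575 in Mesonephros_theca and 1163, 1107 and 1336 in Ovary_theca, so its log2 change of 0.53 ± 0.36 (SE, limma adjusted p = 0.541) rested on replicate 2 and was 0.11 without it, or 0.88 without replicate 1. Probe set 1444229_at read 1654, 1428 and 1497 in Mesonephros_theca and 1117, 1118 and 1535 in Ovary_theca (0.29 ± 0.22 SE, limma adjusted p = 0.584). Probe set 1416160_at read 2257, 3292 and 3028 in Mesonephros_theca and 2349, 3120 and 2725 in Ovary_theca, the smallest change of the 6 (0.06 ± 0.21 SE, limma adjusted p = 0.921). Correlations between the 6 probe sets over the 6 arrays ran from -0.38 to 0.86.

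**Figure D4:**
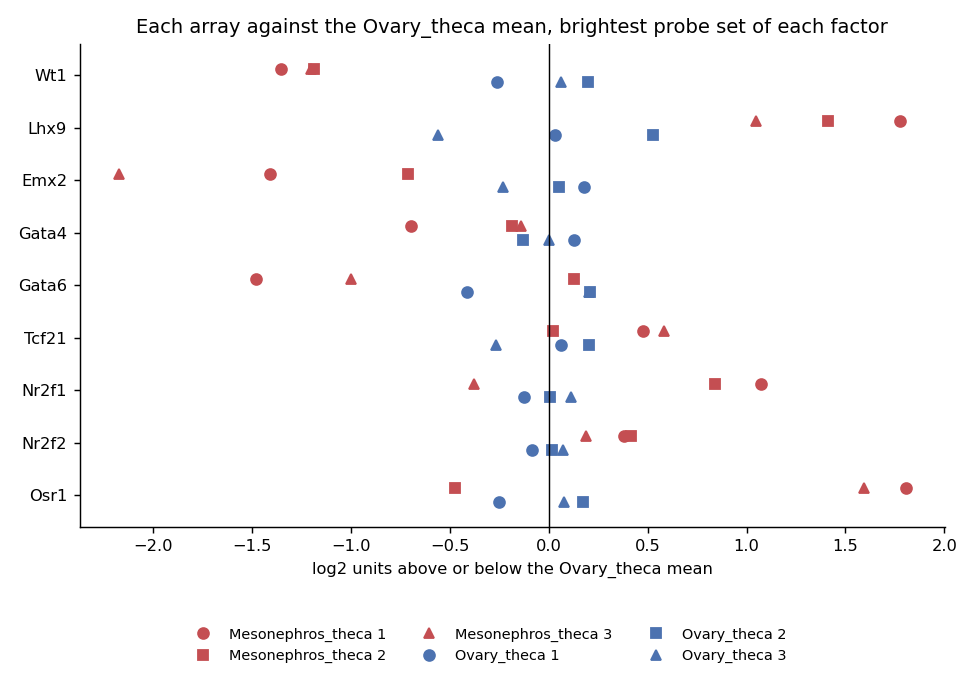
Each array's distance from the Ovary_theca mean in log2 units (x axis) for the brightest probe set of each of the 9 factors; colour shows the group and shape the replicate. Wt1 holds its 3 Mesonephros_theca points at -1.35 to -1.19, whereas Gata6, Nr2f1 and Osr1 have Mesonephros_theca points on both sides of 0.

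Over the 6 arrays, which share the group difference and the array noise, the brightest probe sets of Wt1 and Emx2 correlated at 0.82 and those of Lhx9 and Nr2f2 at 0.83. Wt1 correlated with Lhx9 at -0.86, and Gata6 with Osr1 at -0.88. The genes with the pattern most like that of Wt1 were Avpr1a, a vasopressin receptor, H3f3b, a replacement histone, and Homez, at Pearson r of 0.99 each over 6 arrays. Snai2, the zinc finger repressor Slug, was the gene most like Lhx9 (r = 0.99). For Emx2 it was Fbxo28, for Gata4 Pfdn4, for Gata6 Trank1, for Tcf21 the phosphatase gene Ptpn11, for Nr2f1 4921515E04Rik, for Nr2f2 the mitochondrial gene ND5 and for Osr1 Tbc1d10a, at r of 0.988 to 0.999. Emx2os, a transcript from the strand opposite Emx2, was among the 3 genes most like Osr1 (r = 0.98), and it stood at 171 ± 54.0 in Mesonephros_theca and 130 ± 17.7 in Ovary_theca (SD, n = 3 each). With 11703 genes to choose from and 6 arrays, such values are a description.

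Other factors of the gonadal ridge and intermediate mesoderm were read from a list of 18, of which 15 had a probe set and 7 passed the floor. Of the 7, 4 were above 0 and 3 below, against 43.5% of all genes above 0, with a median log2 change of 0.04 (-0.08 over all 11703 genes tested at 1 probe set a gene). None was called, against 0.0427% of all genes. At an unadjusted p of 0.05, 2 passed, both below the Ovary_theca level, against 13.7% of all genes. Sox11, an SRY-box factor of embryonic progenitors, read 206, 167 and 274 in Mesonephros_theca and 709, 504 and 661 in Ovary_theca (-1.48 ± 0.33 SE, limma adjusted p = 0.195). Sox9, known as the testis-determining target of Sry and also from kidney tubules, read 439, 409 and 308 in Mesonephros_theca and 718, 609 and 670 in Ovary_theca (-0.78 ± 0.28 SE, limma adjusted p = 0.312). Neither overlapped between the groups. Sox11 had 5 other tested probe sets, at -2.48 to -0.22. Cited2, a transcriptional coregulator that works with Wt1 in the mouse adrenal and gonadal primordium, stood at 0.46 ± 0.23 (SE, limma adjusted p = 0.413) without overlap, and its other tested probe set at 1.18.

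Nr5a1, the steroidogenic nuclear receptor whose promoter Wt1 and Lhx9 are reported to activate, read 2062, 833 and 1431 in Mesonephros_theca and 1919, 1595 and 1998 in Ovary_theca. The groups overlapped (-0.43 ± 0.32 SE, limma adjusted p = 0.562), and its other tested probe set stood at 0.09. The change was -0.09 without Mesonephros_theca replicate 2 and -0.73 without replicate 1 (limma adjusted p = 0.203). The tubule factors Pax8 and Lhx1 were under the floor, with highest signals over the 6 arrays of 44.8 and 35.3, as were Lhx2, the nearest relative of Lhx9, at 9.32 and Emx1, the relative of Emx2, with a mean of 75.7 ± 28.6 in Mesonephros_theca and 56.4 ± 18.1 in Ovary_theca (SD, n = 3 each).

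Among GATA relatives and cofactors of the 9 factors, 9 of 12 genes passed the floor, 6 above 0 and 3 below, with a median of 0.38, and none passed an adjusted p (0.0427% of all genes did), or an unadjusted p (13.7%), of 0.05 in limma. Zfpm2 (Fog2), the cofactor through which Gata4 acts in the mouse gonad, stood at -0.20 ± 0.28 log2 units (SE, limma adjusted p = 0.769), and its other tested probe set at -0.61. Ldb1, the adaptor that binds LIM homeodomain factors such as Lhx9, stood at 0.38 ± 0.22, Lmo4, a LIM-only protein, at 0.55 ± 0.30, and Wtip, which binds Wt1, at 0.47 ± 0.28 (SE; limma adjusted p between 0.441 and 0.471). Gata1, Gata3 and Gata5 were under the floor, so Gata2, Gata4 and Gata6 were the family members read above it.

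Of interstitial and stromal factors, 11 of 16 passed the floor, 5 above 0 and 6 below, with a median of -0.06. None was called by limma, against 0.0427% of all genes, and 1 of 11 (Snai2) passed an unadjusted p of 0.05, against 13.7%. Snai2 read 7312, 6300 and 5621 in Mesonephros_theca and 3779, 4699 and 2519 in Ovary_theca without overlap on probe set 1447643_x_at (0.84 ± 0.24 SE, limma adjusted p = 0.263). Its other tested probe set stood at 0.52, and with _x_at, _s_at and _a_at probe sets left out its unadjusted p was 0.116 (limma). Ebf1, a stromal and B cell factor, stood at 0.70 ± 0.35, and Twist1, a mesenchymal helix-loop-helix factor, at -0.54 ± 0.37 (SE; limma adjusted p = 0.409 and 0.534), or -0.14 without Mesonephros_theca replicate 1. The other 3 tested probe sets of Ebf1 lay on both sides of 0, from -0.27 to 0.41.

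Genes reported as regulated by the 9 factors went both ways: 15 of 19 passed the floor, 7 above 0 and 8 below, with a median of -0.04. None was called by limma, against 0.0427% of all genes, and 4 of 15 passed an unadjusted p of 0.05, against 13.7%, with Cyp17a1 and Cyp11a1 above the Ovary_theca level and Igf1r and Egfr below it. Cyp17a1, the androgen-forming enzyme whose promoter GATA factors bind, read 3346, 10577 and 8689 in Mesonephros_theca and 1413, 1304 and 619 in Ovary_theca (2.67 ± 0.45 SE, limma adjusted p = 0.106), and Cyp11a1, the side chain cleavage enzyme, read 2371, 9988 and 7065 in Mesonephros_theca and 2674, 1915 and 2551 in Ovary_theca (1.22 ± 0.46 SE, limma adjusted p = 0.318). Replicate 1 was the lowest of the Mesonephros_theca arrays for both enzymes, and without it both passed (3.18 and 1.83, limma adjusted p = 0.0126 and 0.0171). The tested probe sets of Gata4 and Gata6 were also lowest on replicate 1, as were those of Wt1, Lhx9 1419324_at and Nr2f2 1416160_at and 1436475_at. Changes of Gata4 and Gata6 were below 0 and those of both enzymes above it. A link between the GATA factors and the enzymes was not tested. Igf1r, the growth factor receptor that Wt1 is reported to repress, read 1646, 860 and 1711 in Mesonephros_theca and 2841, 3191 and 3541 in Ovary_theca (-1.23 ± 0.28 SE, limma adjusted p = 0.207). Igf1r and Wt1 were both lower on every Mesonephros_theca array than on any Ovary_theca array, and a link between them was not tested. The other 3 tested probe sets of Igf1r stood at -0.60 to -0.45.

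**Figure D5:**
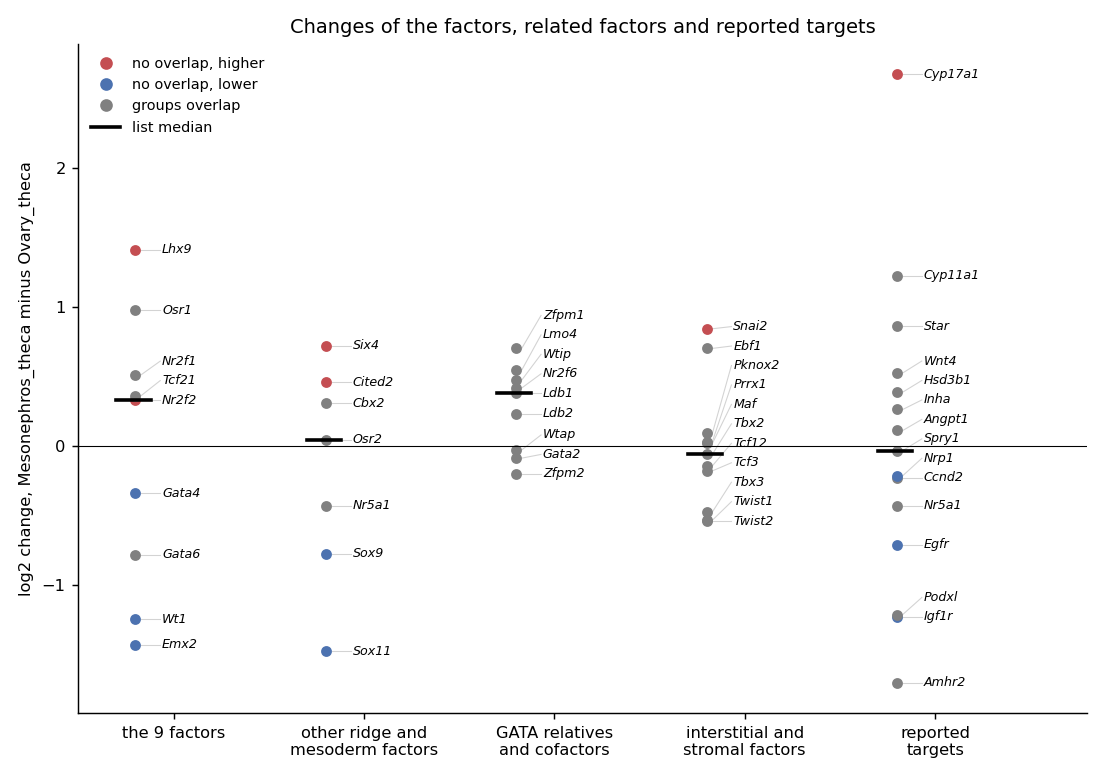
Log2 change (y axis, Mesonephros_theca minus Ovary_theca) of each tested gene at its brightest probe set for the 9 factors and 4 lists of related genes; black bars are list medians and colour shows whether the arrays of the groups overlap. The 9 factors spread from -1.43 (Emx2) to 1.41 (Lhx9), the GATA relatives and cofactors from -0.20 to 0.70, the other ridge factors from -1.48 to 0.72, the interstitial factors from -0.54 to 0.84 and the genes reported as regulated from -1.71 to 2.67.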

How the data were processed

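Total RNA from 6 sorted samples was amplified and biotin-labelled from a fixed volume, per the labels' protocols. The table the authors deposited holds linear intensities, for which the submitters' processing notes name MAS5 (no version or settings in the sources used here). Trimmed by 2% at each end, each array's mean intensity was 500, and nothing further was done to scale the arrays. They give no counts, and their number, 3 per group, limits the precision.

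Of 45037 non-control probe sets, 34945 had 1 gene symbol, 932 several and 9160 none here. Values were taken as log2(signal + 16), which understates changes of dim genes. Probe sets with a mean over all 6 arrays under the 40th percentile were not tested. Differences were tested in limma 3.58.1 (R 4.3.3, lmFit and eBayes with an intensity trend), adjusted by Benjamini-Hochberg over 27022 probe sets or, for gene lists, over 11703 genes at their brightest probe set. A fold given as a bound is taken against the floor signal. The code was tested on simulated data.

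The members and lists were chosen with earlier results of these data known. Genes were named by rule: all probe sets of the 9 factors, the 3 smallest p and any call in each related list, Nr5a1 and Zfpm2 (another gene of the rule is not reported here), the brightest markers and the genes most correlated with each factor. Pax8, Lhx1, Lhx2, Emx1, Egfr, Gata1, Gata2, Gata3, Gata5, Fshr, Cd14 and the surface epithelium markers were named after their values were seen. Alternatives changed the pseudocount, floor, scaling, probe set choice, eBayes settings, array weights and covariates, or left out 1 array. No 2 arrays held identical values.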

Additional observations from a re-analysis of the deposited data

How the results depend on the processing

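None of the 19 tested probe sets of the 9 factors was called in the 20 alternatives, except with array weights, where 1 (Wt1) was (limma). At an unadjusted p of 0.05 (limma) 3 to 10 passed, and the number tested changed with the floor and the probe set choice. The count over all probe sets changed too. Without Mesonephros_theca replicate 2, 10 passed beside 3850 of all 27022, and without replicate 3, 7 beside 5530. With the poly-A spike covariate 4 passed beside 652, and without Ovary_theca replicate 1, 3 beside 1431. Genes called over the 9 factors and the lists of related genes numbered 0, but 4 with array weights (Wt1, Cyp11a1, Cyp17a1 and Igf1r) and 0 to 2 when 1 array was left out (2 without Mesonephros_theca replicate 1, Cyp11a1 and Cyp17a1). Over all probe sets 4 were called, all higher. The count was 2 with a pseudocount of 1, 7 with 64, 2 with no floor, 8 with the floor at the 60th percentile (7 higher), 7 after quantile normalization, 2 after median centring, 8 with each gene's probe sets averaged, 1 without the intensity trend, 252 with array weights (151 higher), 0 with the poly-A spike covariate and 7 with the replicate block (5 higher). Left out 1 at a time, arrays gave 0 to 104 calls, 104 without Mesonephros_theca replicate 1, 2 without replicate 2 and 0 without Mesonephros_theca replicate 3 or any Ovary_theca array. The replicate numbers did not pair the samples: deviations of same-numbered arrays correlated at 0.00, 0.04 and 0.02, and the replicate block called 0 of the factors.

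Wt1 kept its direction in all 19 settings that gave a value (-1.38 to -1.15), as did Emx2 (-2.30 to -1.04) and the brightest probe set of Lhx9 (0.96 to 1.67); Wt1 has no value without _s_at probe sets, and its limma adjusted p was 0.0233 to 1.00 over these settings. Averaging a gene's probe sets gave 0.69 for Lhx9, 0.79 for Tcf21, -1.20 for Gata6 and -0.20 for Sox9, all with a limma adjusted p over 0.05. Without Mesonephros_theca replicate 1, Cited2 stood at 0.29, Ldb1 at 0.24, Lmo4 at 0.31, Wtip at 0.22 and Zfpm2 at -0.06. The change of Tcf21 1417447_at was 0.23 without Ovary_theca replicate 3, that of Nr2f2 1444229_at 0.44 without it, and that of Lhx9 1429905_at 0.32 without Ovary_theca replicate 1. Directions turned for Nr2f2 1416158_at after quantile normalization (-0.12), for Nr2f2 1416160_at without Mesonephros_theca replicate 2 (-0.053) or Ovary_theca replicate 1 (-0.046), with a range of -0.053 to 0.22 over the fits that left out 1 array, and with the poly-A spike covariate for Gata4 1418864_at (0.33), Nr2f1 (-0.84), Ebf1 (-0.19), Ldb1 (-0.071), Lmo4 (-0.13) and Zfpm2 (0.13). The cause was not tested. Median log2 change over all tested probe sets was -0.11, -0.08 after quantile normalization and -0.03 after median centring. The alternatives for list genes were added after the data were seen. Emx2 and the dim probe sets of Lhx9 and Gata6 lie near the floor, which limits what they can show.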
